A study of Mus musculus with 24 samples.

Results

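The hippocampus on the injured (ipsilateral) side of the brain was compared with the hippocampus of the opposite (contralateral) side 6 h after hypoxia-ischemia in mouse pups. All libraries titled 6 h were taken, which gave 6 ipsilateral and 6 contralateral libraries, 12 of the 24 libraries of the series. The pups were 10 days old (postnatal day 10) and of 3 genotypes, with 2 replicates of each genotype on each side: mice labelled Neil1-KO, mice titled Neil2-KO, and wild-type mice (WT). Neil1 and Neil2 encode DNA glycosylases, enzymes that cut oxidized bases out of DNA. Both sides of every mouse had been through the insult, and no library from an uninjured mouse was analysed here, so each difference is between the sides. How the knockouts were made, and whether they reach every cell, is not stated in the labels. The other 12 libraries were taken at 3 h and are used only to ask whether a side difference was the same size at the earlier time.

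Neonatal hypoxia-ischemia is a model of birth asphyxia. In its usual form a carotid artery is closed on the injured side and the pup then breathes air poor in oxygen, so that the injured side loses blood flow and oxygen while the opposite side meets low oxygen with its blood flow largely kept. Energy failure lets glutamate build up outside neurons, calcium enters through NMDA receptors, and damaged cells switch on immediate early genes, chaperones and alarm cytokines within hours. Microglia, astrocytes and blood vessel cells answer with chemokines, adhesion molecules and matrix enzymes, and neurons die over the following day or days.

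The 12 libraries held 17771293 to 27339693 reads. The first principal component took 49.2% of the variance and separated the sides, with ipsilateral libraries between 29.8 and 69.4 and contralateral libraries between -48.9 and -35.0. Ipsilateral replicate 2 of labelled Neil1-KO stood apart, with the highest first component and a second component of 55.4. It had 12.5% of its reads on lines with no gene name, against at most 10.8% elsewhere. The second component of the other 11 libraries lay between -46.2 and 15.9. The -46.2 was that of WT ipsilateral replicate 2, and the next lowest was -18.0. Neil2 was listed at 3.02 and 0 normalized counts ipsilaterally and at 0 and 2.66 contralaterally in Neil2-KO, and between 16.02 and 28.7 in the other 8 libraries. Neil1 was not reduced in the libraries labelled Neil1-KO (115 and 155 ipsilaterally, 117 and 126 contralaterally), against 96.1 and 123 ipsilaterally and 56.8 and 83.3 contralaterally in WT, so that label is unverified. The labels of the Neil2-KO libraries also carry a Neil1-KO genotype tag, and the titles were followed. Xist, which marks female cells, stood at 7604 to 18158 in replicate 2 of both knockout labels on both sides and at 4.94 to 20.2 in the other 8 libraries. Hippocampal markers were present on both sides (Prox1 of the dentate gyrus at 335 to 2390.1 ipsilaterally and 2997 to 4309 contralaterally). Ttr, the main transcript of the choroid plexus beside the hippocampus, was 11314 and 19798 in the labelled Neil1-KO ipsilateral libraries and 27741 to 30933 in the WT contralateral ones and 1 Neil2-KO contralateral library, and 154 to 933 in the rest. The thalamus gene Tcf7l2 reached 582.1 and 939.6 in the WT ipsilateral libraries and stood between 94.4 and 231 elsewhere.

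The promoters of the genes with the largest side differences are shown first, so that the letters known to be bound by stress-induced transcription factors can be read beside the values. The RefSeq promoter table (GRCm38.p6) held 12 of the 16 genes with the largest increases, and the 200 bases before the start of the first 8 of these (Atf3, Ccl3, Gdf15, Cxcl10, Il1b, Maff, Il1a and Hspa1b) were searched on both strands for 8 motifs. The motifs were AP-1 (TGANTCA, bound by Fos and Jun proteins), ATF/CRE (TNACGTCA), NF-kB (GGG, any 3 bases, TTCC), a pair of heat shock units (GAANNTTC or TTCNNGAA), C/EBP-ATF (TGATGNAA), STAT (TTCNNNGAA), the interferon-stimulated element (GAAA, any 2 bases, GAAA) and the TATA box (TATAAA). The 5 promoters with a match are printed 5′ to 3′ on the gene's strand, with the matches in capitals.
Atf3 (chr1:191183334-191183533, minus strand): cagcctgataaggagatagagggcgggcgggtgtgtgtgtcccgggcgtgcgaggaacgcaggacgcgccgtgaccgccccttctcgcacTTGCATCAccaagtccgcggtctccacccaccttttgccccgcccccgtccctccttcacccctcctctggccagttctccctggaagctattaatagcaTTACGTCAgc
Cxcl10 (chr5:92348890-92349089, minus strand): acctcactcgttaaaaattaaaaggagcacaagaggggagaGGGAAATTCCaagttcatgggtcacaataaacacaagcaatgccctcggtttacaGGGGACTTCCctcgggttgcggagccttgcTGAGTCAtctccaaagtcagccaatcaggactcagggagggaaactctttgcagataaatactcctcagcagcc
Il1b (chr2:129371140-129371339, minus strand): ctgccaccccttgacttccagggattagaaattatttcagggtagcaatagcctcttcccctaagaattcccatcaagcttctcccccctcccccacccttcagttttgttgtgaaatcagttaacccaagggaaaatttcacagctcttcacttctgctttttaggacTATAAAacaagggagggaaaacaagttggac
Il1a (chr2:129309973-129310172, minus strand): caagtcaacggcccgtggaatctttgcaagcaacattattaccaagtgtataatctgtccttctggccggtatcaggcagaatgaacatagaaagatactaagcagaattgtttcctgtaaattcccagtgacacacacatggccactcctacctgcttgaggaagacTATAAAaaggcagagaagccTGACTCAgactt
Hspa1b (chr17:34959239-34959438, minus strand): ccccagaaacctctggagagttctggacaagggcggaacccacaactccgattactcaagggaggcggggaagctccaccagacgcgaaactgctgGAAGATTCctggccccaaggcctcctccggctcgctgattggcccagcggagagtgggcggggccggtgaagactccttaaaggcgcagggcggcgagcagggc

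Atf3 held an ATF/CRE match ending 3 bases before the start and a C/EBP-ATF match 110 to 103 bases before it. Cxcl10, the gene of an interferon-induced chemokine, held NF-kB matches at 159 to 150 and 104 to 95 bases and an AP-1 match at 74 to 68 bases. The promoters of Il1b and Il1a, a pair of interleukin-1 genes, had a TATA match at 31 to 26 bases (Il1b) and 32 to 27 bases (Il1a), and that of Il1a had an AP-1 match at 12 to 6 bases. Hspa1b, an Hsp70 gene, held a heat shock pair at 104 to 97 bases. No printed matches overlapped, and in the windows of Ccl3, Gdf15 and Maff these letters were not found. A match of this kind is a description of the sequence. The AP-1 letters stood in 5.55% of all 27025 promoters of the table, which include those of genes not tested here. Of the called genes that the table held, they stood in 6.97% (58 of 832) of those at least 2-fold higher ipsilaterally. They stood in 2.3% (7 of 304) of those called at least 2-fold lower and in 3.32% of those not called. The NF-kB letters stood in 3.87% of all promoters, 6.49% of the 2-fold higher, 4.93% of the 2-fold lower and 3.81% of the uncalled genes. For the TATA letters these shares were 10.6%, 11.1%, 6.25% and 5.24%, for ATF/CRE 2.45%, 4.81%, 1.97% and 3.59%, and for C/EBP-ATF 2.93%, 2.76%, 1.97% and 1.62%. STAT stood at 5.62%, 6.13%, 3.29% and 4.47%, the interferon-stimulated element at 2.33%, 3.61%, 2.3% and 2%, and the heat shock pair at 10.4%, 8.41%, 8.22% and 8.46%, in the same order. Over the 12652 tested genes that the table held, the shares were 3.41% (AP-1), 4.28% (NF-kB), 5.3% (TATA) and 3.8% (ATF/CRE). They were 1.66% (C/EBP-ATF), 4.52% (STAT), 1.98% (interferon-stimulated element) and 8.07% (heat shock pair).

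At 6 h most tested genes of chemokines, interleukin-1, stress-induced transcription factors and heat shock proteins had higher levels on the injured side. The injured side held fewer transcripts of NMDA receptor subunits, calcium transporters and a synaptic kinase. Of 18115 genes tested 7454 (41.1%) were called, that is, had a Benjamini-Hochberg adjusted p under 0.05 in limma's test of the 6 ipsilateral against the 6 contralateral libraries with genotype as a block. Of all genes tested, 3635 (20.1%) rose and 3819 (21.1%) fell, which is the background against which counts of list members are read below. Rose and fell mean higher and lower ipsilaterally than contralaterally, here and below. The size of the changes was not even: 1090 genes (6.02%) rose and 440 (2.43%) fell at least 2-fold. The 6 ipsilateral values all lay above the 6 contralateral ones for 1751 genes (9.67%) and all below for 2221 (12.3%). The median log2 fold change over all genes tested was 0.02, and 58.98% of them had the same sign in all 3 genotypes, against 98.39% of the called genes, whose sign in the pooled test is made of the same values. Leaving out the library that stood apart gave 7521 called genes, with 1051 genes at least 2-fold higher and 302 at least 2-fold lower.

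**Figure D1:**
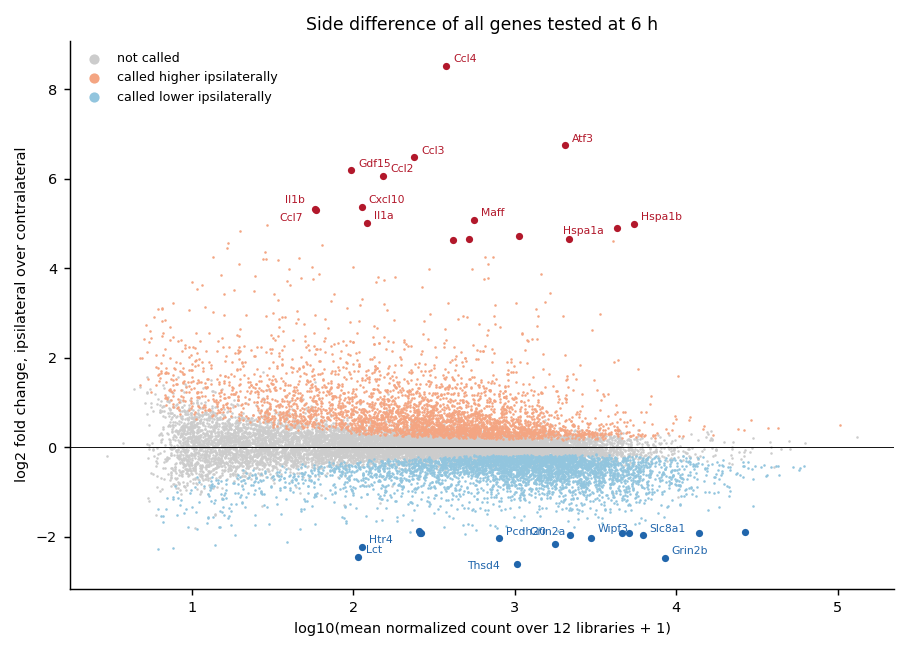
Log2 fold change at 6 h (ipsilateral over contralateral, y axis) against the log10 mean normalized count over 12 libraries (x axis) for 18115 genes, coloured by call, with the 16 highest and 16 lowest named genes as larger points. Increases reached 8.53 (Ccl4) and decreases -2.60 (Thsd4).

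The 16 genes with the largest increases were 6 chemokine genes, both interleukin-1 genes, 3 heat shock genes, Atf3, Maff, Gdf15, Ccn1 and Cd14. Ccl4, a chemokine of activated microglia and macrophages, had 486 to 1134 (median 755) normalized counts in the ipsilateral libraries and 0 to 4.2 (median 0.962) in the contralateral ones, with 3 contralateral libraries listed at 0. Its pooled reads were 5172 reads ipsilaterally and 8 contralaterally, a ratio after scaling by size factors of 507 (exact 95% counting interval 257 to 1174). The log2 fold change was 8.53 ± 0.42 (SE, here and below, n = 6 libraries per side), a fitted value that depends on the pseudocount. Ccl3, its neighbour in the family, stood at 282 to 769.8 (median 465) ipsilaterally and 1.22 to 10.5 (median 3.31) contralaterally (6.47 ± 0.35). Ccl2, which attracts monocytes, stood at 138 to 475 (median 298) and, contralaterally, at 0 to 6.73 (median 4.09) (6.07 ± 0.40). For these 3 genes every ipsilateral library lay far above every contralateral one.

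Atf3, a stress-induced transcription factor, had 2551 to 5492 (median 3803) normalized counts ipsilaterally and 21.8 to 114 (median 29.3) contralaterally, a log2 fold change of 6.74 ± 0.23 (limma adjusted p = 1.29e-09). The highest contralateral value belonged to Neil2-KO replicate 1. Maff, a small Maf factor without an activation domain, stood at 578 to 1581 (median 991) ipsilaterally and 15.9 to 51.8 (median 26.6) contralaterally (5.08 ± 0.17). Gdf15, a hormone released by stressed cells, stood at 132 to 292 (median 176) ipsilaterally and 0 to 4.81 (median 1.13) contralaterally; its pooled reads were 1318 reads ipsilaterally and 11 contralaterally, a ratio after scaling by size factors of 93.9 (exact 95% counting interval 52.3 to 189). The groups did not overlap for any of the 32 genes of this and the next paragraphs, a condition of the rule that chose them.

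Il1b had 51.8 to 209 (median 101) normalized counts ipsilaterally and 0 to 4.96 (median 2.29) contralaterally (5.33 ± 0.43), and its pooled reads were 774 reads ipsilaterally and 12 contralaterally, a ratio after scaling by size factors of 50.5 (exact 95% counting interval 28.8 to 98.2). Il1a had 91.3 to 348 (median 266) ipsilaterally and 2.49 to 11.5 (median 6.18) contralaterally (5.01 ± 0.42). Cd14, the co-receptor of Toll-like receptors on myeloid cells, had 537 to 1009 (median 797) ipsilaterally and 16.9 to 42.3 (median 33.3) contralaterally (4.62 ± 0.19). Ccn1, a matrix protein induced by injury and mechanical stress, had 1906 to 9053 (median 3307) ipsilaterally and 85.8 to 217 (median 151) contralaterally (4.65 ± 0.27). The remaining 6 were Cxcl10 (5.36), Ccl7 (5.30), Ccl9 (4.64), Hspb1 (4.72), and the near-identical Hspa1a (4.89) and Hspa1b (4.99) whose shared reads make the split between them uncertain. Adjusted p-values of the 16 ran between 1.29e-09 and 1.75e-06.

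The 16 genes with the largest decreases were led by Thsd4, a matrix protein gene related to ADAMTS proteases, at 144 to 513 (median 309) normalized counts ipsilaterally and 1440.3 to 2152 (median 1747) contralaterally (-2.60 ± 0.21, limma adjusted p = 1.27e-06). Grin2b, the NMDA receptor subunit that prevails in the young brain, had 989.7 to 3744 (median 2876) ipsilaterally and 11896 to 18159.9 (median 14059) contralaterally (-2.47 ± 0.23). Grin2a, the subunit that gains share as the brain matures, had 253 to 825 (median 746) ipsilaterally and 2392 to 3333 (median 2837) contralaterally (-2.18 ± 0.20). For both, the lowest ipsilateral value belonged to the library that stood apart, and without it the log2 fold changes were -2.20 (Grin2b) and -1.94 (Grin2a).

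Of the genes that move calcium out of neurons, 3 were among these 16. Slc8a1, a sodium-calcium exchanger, had 1075 to 3571 (median 2750.3) normalized counts ipsilaterally and 8712 to 11122 (median 9705) contralaterally (-1.97 ± 0.20). Atp2b1, a calcium pump of the plasma membrane, had 3224 to 7322 (median 6258) ipsilaterally and 19020.5 to 24137 (median 21774) contralaterally (-1.93 ± 0.17). Slc24a2, an exchanger that also uses potassium, had 660.1 to 2893 (median 2099) ipsilaterally and 6405 to 8199.8 (median 6954) contralaterally (-1.92 ± 0.24). Camk2a, the calcium-dependent kinase of the postsynaptic density, had 4968 to 16679 (median 12250.1) ipsilaterally and 35648 to 51680.2 (median 40031) contralaterally (-1.90 ± 0.22). All 6 ipsilateral values lay below every contralateral value for each of these genes. The others were Shisa6, an AMPA receptor auxiliary subunit (-1.93), the serotonin receptor gene Htr4 (-2.22), the receptor gene Gpr63 (-1.88), the protocadherin gene Pcdh20 (-2.04), Wipf3, an actin regulator (-2.02), Galnt17 (-1.96), the lactase gene Lct (-2.44), the lipase gene Lipg (-1.92) and the cytokine gene Il16 (-1.91). Adjusted p-values of the 16 ran between 1.27e-06 and 0.00107, and all 32 named genes stayed called in each of the 22 alternative analyses.

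**Figure D2:**
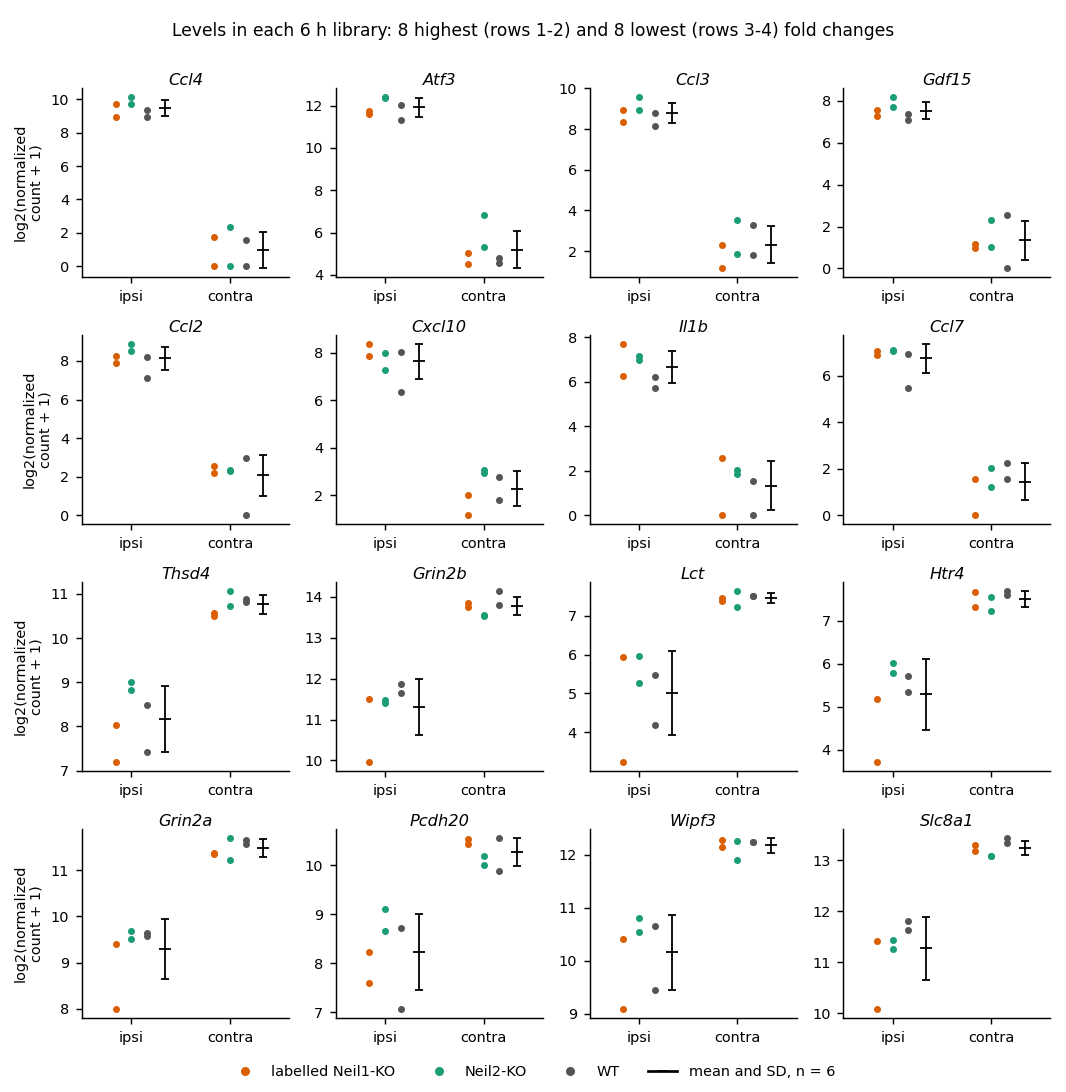
Log2(normalized count + 1) in each 6 h library for the 8 genes with the highest fold changes (upper 2 rows) and the 8 with the lowest (lower 2 rows), ipsilateral libraries on the left and contralateral ones on the right, coloured by genotype, with the mean and SD of the log2 values of 6 libraries. The groups do not overlap for any of the 16, and the lowest Grin2b and Grin2a points belong to labelled Neil1-KO.

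Immediate early transcription factors, which need no new protein to be switched on, rose for 23 of 28 tested members and fell for 1, with a median log2 fold change of 2.33. Csrnp1, a nuclear factor of this class, had 628 to 1223 (median 759.7) normalized counts ipsilaterally and 84.4 to 138 (median 104) contralaterally (2.93 ± 0.10). Npas4, a neuron-restricted factor that follows calcium entry, had 871 to 1999 (median 1327) ipsilaterally and 55.9 to 93.4 (median 65.5) contralaterally (4.25 ± 0.20, adjusted p = 1.43e-08). Atf3 and Maff are given above. The AP-1 gene Fos, named after its values were seen, had 4301 to 15149 (median 6777) ipsilaterally and 156 to 764 (median 282) contralaterally (4.60 ± 0.28). The exception, also named after the values were seen, was Egr3, at 379 to 901 ipsilaterally and 1390.3 to 2303 contralaterally (-1.23 ± 0.14), while Egr1 of the same family rose (2.62).

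Feedback inhibitors of kinase and cytokine signalling rose for 18 of 22 and fell for 0, with a median of 1.20. Socs3, which shuts off JAK-STAT signalling, had 727 to 1512 (median 981) normalized counts ipsilaterally and 57.6 to 64.6 (median 61.2) contralaterally (3.98 ± 0.14). Zfp36, which destabilizes cytokine transcripts, had 776 to 2435 (median 1119) ipsilaterally and 58.4 to 74.6 (median 68.8) contralaterally (4.10 ± 0.21). Dusp16, a phosphatase of stress kinases, rose as well (2.00 ± 0.13), as did Errfi1, an inhibitor of the EGF receptor (1.04 ± 0.07).

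Chemokines rose for 13 of 15 tested members, with a median of 4.37. Besides those above, Ccl12 had 63.2 to 146 (median 109.9) normalized counts ipsilaterally and 3.73 to 12 (median 5.86) contralaterally (3.76 ± 0.21). Ccl9 had 704 to 1294 (median 982) ipsilaterally and 24.8 to 48.8 (median 39.2) contralaterally (4.64 ± 0.17). The 1 that fell was Cx3cl1 (-0.76 ± 0.14), the chemokine that neurons use to hold microglia at rest, named after its values were seen. Cxcl12, a constitutive chemokine, was not called (0.11 ± 0.15, adjusted p = 0.582). Summed over the list, chemokines stood at 10509 to 13921 ipsilaterally and 11565 to 16743 contralaterally. The increases were thus of single genes and not of the summed level.

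Cytokines and growth factors rose for 19 of 29 and fell for 5, with a median of 1.16. Csf1, the growth factor of microglia, had 1312 to 2652 (median 1864) normalized counts ipsilaterally and 288 to 353 (median 314) contralaterally (2.55 ± 0.13). Hbegf, a ligand of the EGF receptor, had 1284 to 2445 (median 2158) ipsilaterally and 309 to 469 (median 345) contralaterally (2.40 ± 0.14). Tgfb1, which restrains inflammation, rose by less (1.66 ± 0.10). The 5 that fell, named after their values were seen, were Bdnf (-1.76 ± 0.20), Inhba (-1.52 ± 0.25), Ntf3 (-0.57 ± 0.18), Tgfb2 (-0.71 ± 0.17) and Il16. Tnf and Il6, textbook alarm cytokines, rose to levels that stayed low, at 16.6 to 64.1 and 9.05 to 29.8 normalized counts ipsilaterally against 0 to 2.1 and 0 to 1.24 contralaterally.

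Cytokine receptors and signalling genes rose for 21 of 24 and fell for 1 (median 1.25). Il4ra, the interleukin-4 receptor chain, had 555 to 817 (median 602) normalized counts ipsilaterally and 101 to 135 (median 115) contralaterally (2.41 ± 0.10). Pim1, a kinase induced by STAT factors, rose by 2.41 ± 0.11 and Osmr, the oncostatin M receptor, by 2.15 ± 0.16. Lifr, the receptor of the related cytokine LIF, was the 1 that fell (-0.73 ± 0.08).

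NF-kB subunits and targets rose for 15 of 20 and fell for 2 (median 1.13). Rela, the main activating subunit, had 909 to 1137 (median 1016) normalized counts ipsilaterally and 459.8 to 530.0 (median 497) contralaterally (1.04 ± 0.06), a small spread on both sides. Nfkbiz, an inducible co-regulator, had 571 to 1366 (median 825) ipsilaterally and 83.7 to 132 (median 118) contralaterally (2.92 ± 0.18), and Bcl3, another member of the inhibitor family, rose by 3.87 ± 0.22. The 2 that fell (1 in most fits without a single library) were Sod2 (-0.38 ± 0.09), the mitochondrial superoxide dismutase, and Ptgs2 (-0.57 ± 0.20), the inducible cyclooxygenase. Vcam1, an adhesion molecule target, was not called (0.22 ± 0.19).

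Interferon response and antigen presentation genes rose for 19 of 23 and fell for 0 (median 1.34). Irf8, a factor of microglia and other myeloid cells, had 174 to 360.0 (median 218) normalized counts ipsilaterally and 64.6 to 94.4 (median 74.7) contralaterally (1.63 ± 0.15). Cd74, the invariant chain of class II antigen presentation, had 118 to 206 (median 162) ipsilaterally and 7.94 to 30.8 (median 17.9) contralaterally (3.11 ± 0.29). Irf1 (1.67 ± 0.16) and H2-K1, a class I heavy chain (1.34 ± 0.13), rose too.

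Heat shock chaperones rose for 17 of 27 and fell for 2, and the list median of 0.44 was far below the changes of its leading genes. Hspa1b had 4786 to 15267 (median 10291) normalized counts ipsilaterally and 220.3 to 541 (median 272) contralaterally, and Hspa1a 3904 to 12191 (median 7937) ipsilaterally and 182 to 401 (median 233) contralaterally. Hspb1, a small heat shock protein, had 985 to 3069 (median 1857) ipsilaterally and 36.1 to 162 (median 70.8) contralaterally, and Dnajb1, a partner of Hsp70, rose by 1.25 ± 0.09. Hsp90ab1, a constitutive chaperone, was not called (0.01 ± 0.10). The 2 that fell were Hspa4 (-0.43) and Dnajb5 (-0.40).

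Genes of the unfolded protein and integrated stress responses, which slow translation and expand protein folding in the endoplasmic reticulum, rose for 27 of 33 and fell for 3 (median 0.51). Ppp1r15a, which restarts translation, had 2133 to 2767 (median 2407) normalized counts ipsilaterally and 450.0 to 824 (median 554) contralaterally (2.08 ± 0.09). Ddit3, the death-linked factor CHOP, had 445 to 742 (median 579) ipsilaterally and 164 to 217 (median 176) contralaterally (1.67 ± 0.10). Hspa5, the main chaperone of the endoplasmic reticulum, had 11339 to 18224 (median 15453) ipsilaterally and 4116 to 6302 (median 4775) contralaterally (1.599 ± 0.11), and Creld2 rose by 1.45 ± 0.10. Those that fell were Vldlr (-0.69), Atf6 (-0.46) and Slc7a11 (-0.28).

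Targets of p53 and cell death genes rose for 26 of 35 and fell for 4 (median 1.17). Gadd45b had 1031 to 1521 (median 1405) normalized counts ipsilaterally and 115 to 220.3 (median 137) contralaterally (3.18 ± 0.15), and Gadd45g 2075 to 3306 (median 2217) ipsilaterally and 195 to 425 (median 309) contralaterally (2.94 ± 0.17). Both encode stress sensors. Bcl2l11, the pro-death protein Bim, rose by 1.52 ± 0.10 and Phlda1 by 1.76 ± 0.10. Casp9, a caspase of the intrinsic death pathway, was not called (-0.01 ± 0.10). The members that fell were Hrk (-0.83), Bid (-0.43), Bcl2l1 (-0.26) and Plk2 (-0.20).

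Targets of NRF2 and metallothioneins rose for 12 of 24 and fell for 2 (median 0.24). Hmox1, heme oxygenase 1, had 818 to 1673 (median 1413) normalized counts ipsilaterally and 136 to 242 (median 158) contralaterally (2.92 ± 0.13), while Nqo1, a classic NRF2 target, was not called (0.28 ± 0.28). Nfe2l2, the gene of NRF2, rose by 1.27 ± 0.15, and the zinc exporter gene Slc30a1 by 0.85 ± 0.10. Hypoxia targets and glycolysis genes were split, with 11 higher and 10 lower of 34 (median 0.02, beside 0.02 for all genes), and 4 were lower when Neil2-KO was left out. Egln3 (1.19 ± 0.11), Slc16a3, a lactate exporter (1.49 ± 0.16), and Slc2a1, the glucose transporter of the blood-brain barrier (1.498 ± 0.17), rose, Pdk1 fell (-0.42 ± 0.07), and Gapdh was not called (-0.02 ± 0.09).

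Extracellular proteases and matrix genes rose for 18 of 23 and fell for 1, Timp2 (median 1.16). Timp2 was not called with the replicate block or in 6 of the 12 fits that left out 1 library each, namely contralateral replicates 1 and 2 of labelled Neil1-KO, contralateral replicate 1 of Neil2-KO, and contralateral replicates 1 and 2 and ipsilateral replicate 1 of WT. Plau, urokinase, had 180.2 to 384 (median 258) normalized counts ipsilaterally and 22.4 to 43 (median 28.1) contralaterally (3.20 ± 0.18), and its receptor gene Plaur 95.4 to 204 (median 131) ipsilaterally and 6.64 to 16.4 (median 12) contralaterally (3.42 ± 0.23). The groups did not overlap for either gene. Adamts4, which cuts perineuronal matrix, rose by 2.01 ± 0.14.

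Circadian clock genes rose for 13 of 18 and fell for 2 (median 0.68), with both sides taken at the same time point. Nfil3, a repressor of clock output, had 835 to 1069 (median 985) normalized counts ipsilaterally and 195 to 258 (median 209) contralaterally (2.16 ± 0.08). Per1, a clock gene that also answers stimuli and glucocorticoids, had 2464 to 4352 (median 3014) ipsilaterally and 979 to 1203 (median 1057) contralaterally (1.53 ± 0.10). Ciart (2.27 ± 0.16) and Bhlhe41 (1.73 ± 0.12) rose, and Tef (-0.36) and Clock (-0.31) fell. Glucocorticoid genes were split, with 5 higher and 5 lower of 12. Fkbp5, a textbook glucocorticoid target, had 822 to 979.9 (median 855) ipsilaterally and 1385 to 1702 (median 1549) contralaterally (-0.81 ± 0.06), and Klf9 fell too (-0.77 ± 0.08), whereas Tsc22d3 rose (0.48 ± 0.08).

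**Figure D3:**
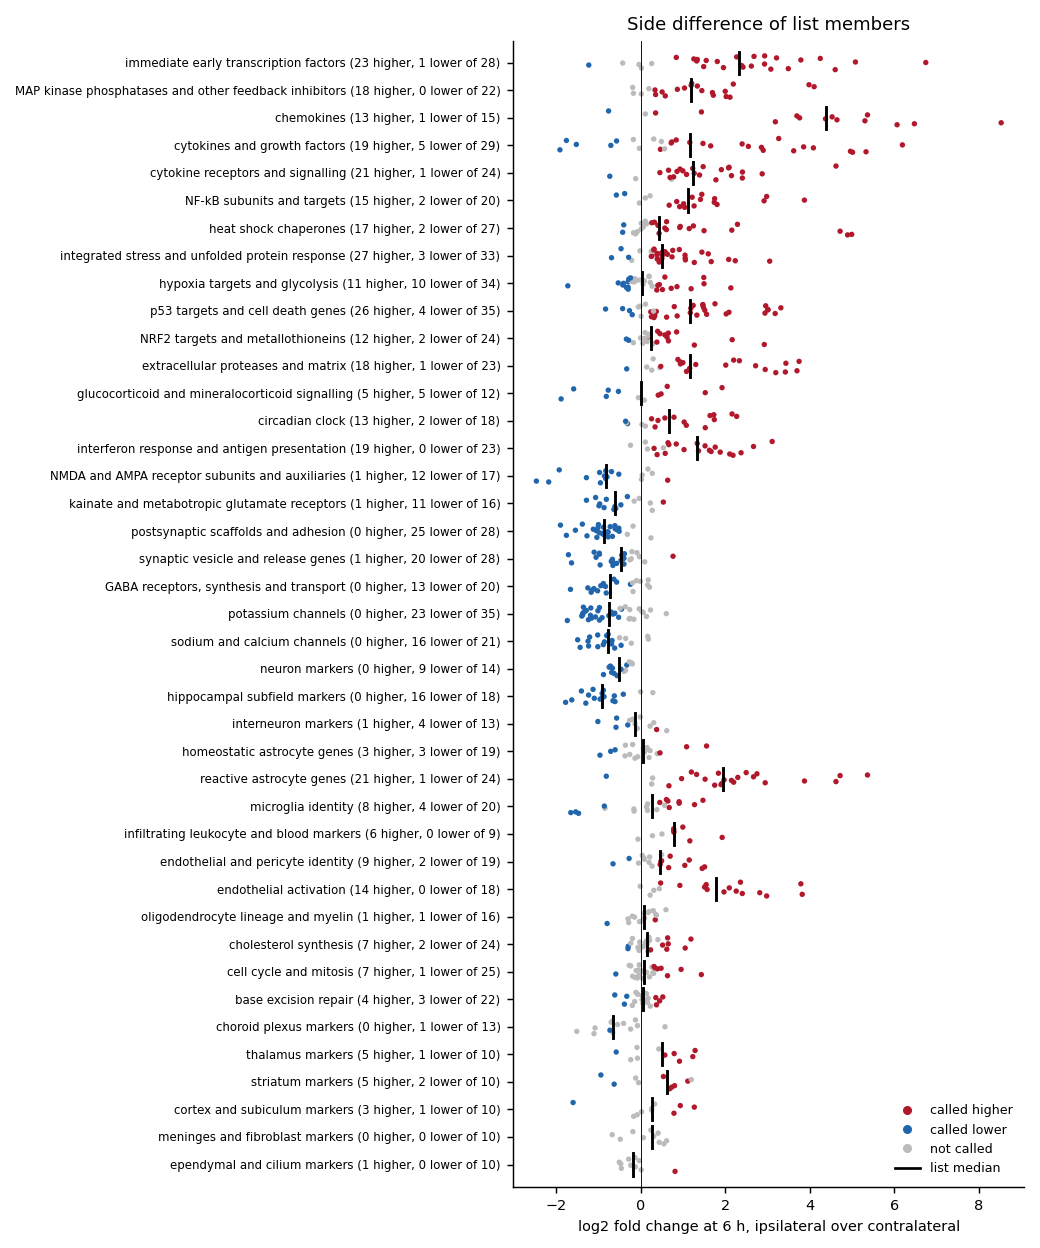
Log2 fold change at 6 h (ipsilateral over contralateral, x axis) of each tested member of 41 gene lists, coloured by call, with the list median as a black bar. Chemokines (median 4.37), immediate early factors (2.33) and reactive astrocyte genes (1.95) lie to the right, and synapse, channel and hippocampal subfield lists lie to the left with medians between -0.91 and -0.46.

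Synaptic genes were lower on the injured side across receptors, scaffolds and release machinery. NMDA and AMPA receptor subunits and auxiliaries fell for 12 of 17 and rose for 1 (median -0.83). Gria2, the AMPA subunit that keeps calcium out, had 5508 to 7782 (median 6944) normalized counts ipsilaterally and 10426 to 13139 (median 11618) contralaterally (-0.80 ± 0.10), and Gria3 867 to 1492 (median 1267) ipsilaterally and 2002 to 2427 (median 2219.7) contralaterally (-0.86 ± 0.10). The subunits did not move alike: Gria4 (0.03 ± 0.11) and Grin2d (0.02 ± 0.19) were not called, and Grin2c rose (0.64 ± 0.13).

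Kainate and metabotropic glutamate receptors fell for 11 of 16 and rose for 1 (median -0.60). Grm5 had 1675 to 3653 (median 3204) normalized counts ipsilaterally and 6654 to 7447 (median 7213) contralaterally (-1.28 ± 0.15), and Grid1 fell by less (-1.07 ± 0.10). Grm3, a receptor mostly of astrocytes, was the 1 that rose (0.54 ± 0.14). Postsynaptic scaffolds and adhesion genes fell for 25 of 28, with none called higher (median -0.87). Nlgn1, an adhesion protein of excitatory synapses, had 522 to 862 (median 760.3) ipsilaterally and 1986 to 2585 (median 2056) contralaterally (-1.54 ± 0.10). Dlgap1 (-1.27 ± 0.12), Kalrn (-1.38 ± 0.15) and Shank3 (-0.97 ± 0.11) followed.

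Synaptic vesicle and release genes fell for 20 of 28 and rose for 1, Unc13c (0.77 ± 0.17), with a median of -0.46 (13 fell without labelled Neil1-KO and 11 without Neil2-KO). Bsn, the active zone scaffold Bassoon, had 1227 to 3687 (median 2863) normalized counts ipsilaterally and 7929.7 to 9005 (median 8406) contralaterally (-1.71 ± 0.19), and the vesicle gene Sv2b 1497 to 4018 (median 3638) ipsilaterally and 8850.5 to 10002 (median 9658) contralaterally (-1.63 ± 0.16). GABA receptor, synthesis and transport genes fell for 13 of 20 and rose for 0 (median -0.72). Gabrb1 had 789.7 to 1207 (median 1057) ipsilaterally and 3064 to 3574 (median 3182) contralaterally (-1.66 ± 0.09). The GABA synthesis gene Gad2 fell (-0.57 ± 0.14), with overlapping groups, while the synthesis gene Gad1 (-0.19 ± 0.12) was not called. The vesicle transport gene Slc32a1 (-0.01 ± 0.17) was not called either.

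Potassium channels fell for 23 of 35 (median -0.75) and sodium and calcium channels for 16 of 21 (median -0.77), and none of either list was called higher. Kcnd2, of the transient dendritic current, had 878 to 1730.3 (median 1366) normalized counts ipsilaterally and 3112 to 3676 (median 3565) contralaterally (-1.39 ± 0.12). Cacna1e, of the R-type calcium current, had 995 to 2258 (median 1697) ipsilaterally and 4137 to 4970.1 (median 4639.6) contralaterally (-1.49 ± 0.12). Scn2a, a sodium channel of excitatory neurons, had 1418 to 3765 (median 2717) ipsilaterally and 5837 to 7882 (median 7153) contralaterally (-1.43 ± 0.16). The other named members were Kcna4 (-1.24), Kcnd3 (-0.75), Kcnma1 (-1.36), Cacna2d1 (-1.21) and Cacna1c (-1.24).

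General neuron markers fell for 9 of 14 and rose for 0, with a median of -0.51. Map2, a dendrite protein, had 10800.1 to 18630.0 (median 15370.4) normalized counts ipsilaterally and 25083 to 29077 (median 27632) contralaterally (-0.88 ± 0.12), and Rbfox3 (NeuN) 1496 to 3994 (median 2568) ipsilaterally and 3429 to 3967 (median 3771) contralaterally (-0.56 ± 0.15), with groups that overlapped. In tissue RNA, fewer neurons and less RNA per neuron cannot be told apart. Summed over the list, neuron markers stood at 87373 to 156999 ipsilaterally and 168835 to 196046 contralaterally, and their part in the synaptic decreases was not tested. Markers of hippocampal subfields fell for 16 of 18 (median -0.91). Fibcd1 of field CA1 had 451 to 1852 (median 1290.1) ipsilaterally and 2897 to 4499 (median 3359.5) contralaterally (-1.78 ± 0.28), C1ql2 of the dentate gyrus fell (-1.10 ± 0.20), as did C1ql3 (-0.91 ± 0.14). Without the library that stood apart 13 of the 18 were lower, and without Neil2-KO 10 were. Interneuron markers were less uniform, with 4 lower and 1 higher of 13 (median -0.13). Cck (-0.58 ± 0.11), Nos1 (-1.01 ± 0.21) and Gad2 (-0.57 ± 0.14) fell, Sst rose (0.38 ± 0.10), and Vip was not called (-0.08 ± 0.14).

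Reactive astrocyte genes rose for 21 of 24 and fell for 1, Fkbp5 (median 1.95). Emp1 had 1486 to 3648 (median 2815) normalized counts ipsilaterally and 146 to 246 (median 169.5) contralaterally (3.87 ± 0.18), and Nes, an intermediate filament of reactive and immature astrocytes, 1069.6 to 1769.8 (median 1524) ipsilaterally and 353 to 417 (median 404) contralaterally (1.90 ± 0.09). Gfap, the best known astrocyte filament, had 10235 to 20399 (median 14763) ipsilaterally and 6349.8 to 10457 (median 9731) contralaterally (0.67 ± 0.15), with overlapping groups, and Serpina3n was not called (0.26 ± 0.11). Homeostatic astrocyte genes rose for 3 and fell for 3 of 19 (median 0.06). The glutamate transporter genes Slc1a2 (-0.14 ± 0.16) and Slc1a3 (0.20 ± 0.16) were not called, Sox9 rose (1.56 ± 0.15), and the gap junction gene Gjb6 fell (-0.96 ± 0.16). Without the library that stood apart 6 of these 19 were lower.

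Microglia identity genes were split, with 8 higher and 4 lower of 20 (median 0.27). Fcrls had 755 to 1825 (median 918) normalized counts ipsilaterally and 299.6 to 474 (median 351) contralaterally (1.47 ± 0.16), and C1qb rose by 0.91 ± 0.14. The resting-state markers P2ry12 (-1.47 ± 0.39) and Tmem119 (-1.54 ± 0.45) fell, with P2ry12 at 73.5 to 598 (median 123) ipsilaterally and 332 to 571 (median 426) contralaterally in overlapping groups, and Cx3cr1 and Csf1r were not called (-0.16 ± 0.21 and 0.16 ± 0.21). The number that fell was 7 without labelled Neil1-KO and 1 without Neil2-KO or WT. Of 17 markers of infiltrating leukocytes and blood 9 passed the filter and 6 of these rose. Ccr2, a receptor of inflammatory monocytes, had 8.9 to 27.8 (median 12.9) ipsilaterally and 0 to 7.7 (median 3.69) contralaterally, and its pooled reads were 103 reads ipsilaterally and 22 contralaterally, a ratio after scaling by size factors of 3.67 (exact 95% counting interval 2.3 to 6.11). Hemoglobin and heme synthesis genes rose too (Hba-a2 by 0.78 ± 0.24 and Alas2 by 1.00 ± 0.28) with overlapping groups. Of the 9 genes 2 were called when contralateral replicate 1 of labelled Neil1-KO was left out. The lowest count among the alternatives that did not drop a single library was 1. The list median was 1.53 in labelled Neil1-KO, 0.14 in Neil2-KO and 0.72 in WT. The neutrophil gene S100a8 stayed under the filter, at 2.67 to 16.7 ipsilaterally and 0.962 to 4.2 contralaterally, and the granule gene Camp was listed at 0 in 9 of the 12 libraries. The summed level of the list was 9558 to 50504 ipsilaterally and 6547 to 15738 contralaterally, and the part of blood cells in the cytokine and chemokine increases was not tested.

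Endothelial activation genes rose for 14 of 18 and fell for 0 (median 1.77). Icam1, the adhesion molecule that leukocytes grip, had 296 to 682 (median 542) normalized counts ipsilaterally and 54.6 to 78.7 (median 62.9) contralaterally (2.98 ± 0.16). Angpt2, which loosens vessels, had 319 to 727 (median 478) ipsilaterally and 53.7 to 76 (median 66.3) contralaterally (2.82 ± 0.17), Klf4 616 to 2259 (median 1276) and, contralaterally, 67.5 to 133 (median 76.9) (3.79 ± 0.26), and the vessel peptide gene Apln rose by 1.97 ± 0.20. Endothelial and pericyte identity genes rose for 9 and fell for 2 of 19 (median 0.46; 0 or 1 fell in most fits without a single library), with Cdh5 (1.51 ± 0.17) and Pecam1 (1.45 ± 0.18) above the smaller change of Cldn5 (0.66 ± 0.10). The pericyte receptor gene Pdgfrb was not called (0.07 ± 0.13).

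Oligodendrocyte lineage and myelin genes rose for 1 and fell for 1 of 16 (median 0.09). The member that fell was Pdgfra (-0.79 ± 0.12), the growth factor receptor of oligodendrocyte precursors, at 1624 to 2797 (median 1764) normalized counts ipsilaterally and 3254 to 3552 (median 3291) contralaterally, and Mbp of myelin was not called (0.35 ± 0.26). Leaving out single libraries moved these counts to at most 4 higher (without WT ipsilateral replicate 1) and 3 lower (without the library that stood apart). Cholesterol synthesis genes rose for 7 and fell for 2 of 24 (median 0.16; 0 or 1 fell in most fits without a single library), led by Idi1 (1.05 ± 0.10) and Insig1 (1.19 ± 0.11). Cell cycle genes rose for 7 and fell for 1 of 25 (median 0.08). The cyclin gene Ccnd1 stood at 882 to 1245 (median 1115) ipsilaterally and 374 to 450.1 (median 394) contralaterally (1.43 ± 0.08), Mcm2 of the replication helicase rose by 0.96 ± 0.10, and Mki67 (0.05 ± 0.14) and Top2a (-0.08 ± 0.15) were not called. Without WT ipsilateral replicate 2 the number of cell cycle genes called higher was 11, and without labelled Neil1-KO or Neil2-KO it was 4.

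Base excision repair genes, the pathway of the targeted glycosylases, rose for 4 and fell for 3 of 22, beside 20.1% and 21.1% of all genes. Parp1, which senses strand breaks, had 1120.2 to 1634 (median 1510.1) normalized counts ipsilaterally and 2103 to 2415 (median 2178) contralaterally (-0.61 ± 0.09), and Tdg fell too (-0.38 ± 0.06). Lig1 (0.52 ± 0.10) and Polb (0.36 ± 0.08) rose. Neil1 had 96.1 to 155 (median 116) ipsilaterally and 56.8 to 126 (median 84.1) contralaterally, and its log2 fold change of 0.45 ± 0.16 was called (limma adjusted p = 0.0342) and stayed so in 14 of 22 alternatives. Neil2 was not called (0.06 ± 0.40).

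Markers of neighbouring tissue varied between libraries. Choroid plexus markers rose for 0 and fell for 1 of 13, but 10 of 13 were lower when labelled Neil1-KO was left out, and their median log2 fold change was 3.01 in labelled Neil1-KO, -1.12 in Neil2-KO and -3.26 in WT, and their summed level was 1583 to 26753 ipsilaterally and 1283 to 35706 contralaterally. With the level of these markers in the fit 8068 genes were called. Thalamus markers rose for 5 and fell for 1 of 10 (summed level 3619.6 to 6005 ipsilaterally and 3511 to 4268 contralaterally), striatum markers for 5 and 2 of 10 (2292 to 4124 ipsilaterally and 2978 to 3868 contralaterally), and cortex and subiculum markers for 3 and 1 of 10 (10915 to 13877 ipsilaterally and 9872 to 12564 contralaterally). Meninges markers (0 of 10 called, and 2 without the library that stood apart) and ependymal markers (1 of 10, Foxj1) stayed mostly uncalled. The part of neighbouring tissue in the side differences was not tested beyond the fit with the choroid plexus level.

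The side response was compared between the 3 genotypes in a model with an interaction term. No gene was called by limma (0%, smallest adjusted p 0.117), although 1962 of 18115 genes (10.83%) had an unadjusted p under 0.05. The smallest adjusted p belonged to the choroid plexus transcript Ttr. Its log2 fold change was 6.43 in labelled Neil1-KO, -3.06 in Neil2-KO and -6.69 in WT. With edgeR 0 genes were called, with DESeq2 82 and with the replicate block (animal) 4. The named genes have no overlap between the sides, which fixes 1 sign in every genotype, so only sizes are given. Ccl4 rose by 8.43 in labelled Neil1-KO, 8.76 in Neil2-KO and 8.39 in WT. Grin2b had log2 fold changes of -3.08, -2.11 and -2.22 in the same order. Its level in ipsilateral replicates 1 and 2 of labelled Neil1-KO was 2898 and 989.7 normalized counts. Over the 16 named increases the median was 5.57 in labelled Neil1-KO, 5.15 in Neil2-KO and 4.78 in WT, and over the 16 named decreases it was -2.53, -1.48 and -2.15 in that order. The labelled Neil1-KO sizes rest on 2 ipsilateral libraries, 1 of them the library that stood apart. The sizes of the other genotypes rest on 2 ipsilateral libraries as well. WT ipsilateral replicates 1 and 2 stood at 3419 and 944 for Shisa6 and 420 and 132 for Pcdh20. For Grin2b they stood at 3200 and 3744. Without ipsilateral replicate 1 of labelled Neil1-KO the interaction test called 2107 genes, a fit in which that group rests on the library that stood apart. It called 57 genes without WT ipsilateral replicate 1, and 8 and 11 without contralateral replicates 1 and 2 of Neil2-KO.

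**Figure D4:**
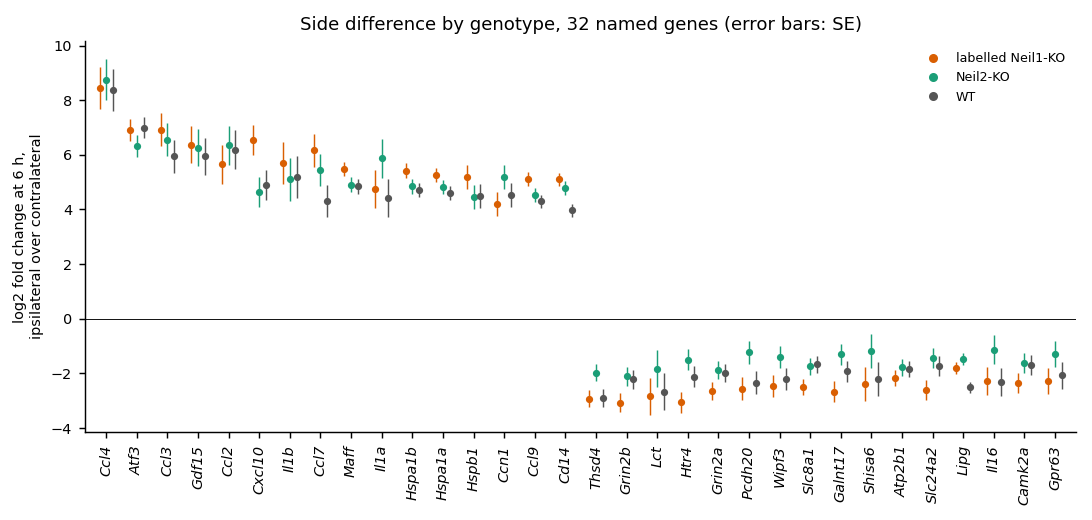
Log2 fold change at 6 h (ipsilateral over contralateral, y axis, with SE) of the 32 named genes in labelled Neil1-KO, Neil2-KO and WT, 2 libraries per side in each. The rule that chose the genes fixes the sign. The largest Grin2b decrease (-3.08) is that of labelled Neil1-KO, whose ipsilateral replicates 1 and 2 stood at 2898 and 989.7. Replicate 2 is the library that stood apart.

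The 6 h side differences were set against those of the 3 h libraries, which share no library with them. At 3 h 6539 of 17973 genes were called, and 4807 genes were called at both times in the same direction (64.49% of those called at 6 h and 73.51% of those called at 3 h), with 9 in opposite directions. In the test of the difference between the times 348 of 18364 genes (1.9%) were called, 263 (1.43%) with a side difference more positive at 6 h and 85 (0.463%) with one more negative. DESeq2 called 798, with 488 more positive and 310 more negative. The count of 348 was 1405 without ipsilateral replicate 1 of labelled Neil1-KO, where the balance turned to 534 more positive and 871 more negative. It was 535 without its ipsilateral replicate 2 and 544 without WT ipsilateral replicate 1. It was 122 and 108 without contralateral replicates 1 and 2 of labelled Neil1-KO, 109 and 180 without ipsilateral replicates 1 and 2 of Neil2-KO, 156 without its contralateral replicate 2, and 204 and 113 without contralateral replicates 1 and 2 of WT.

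**Figure D5:**
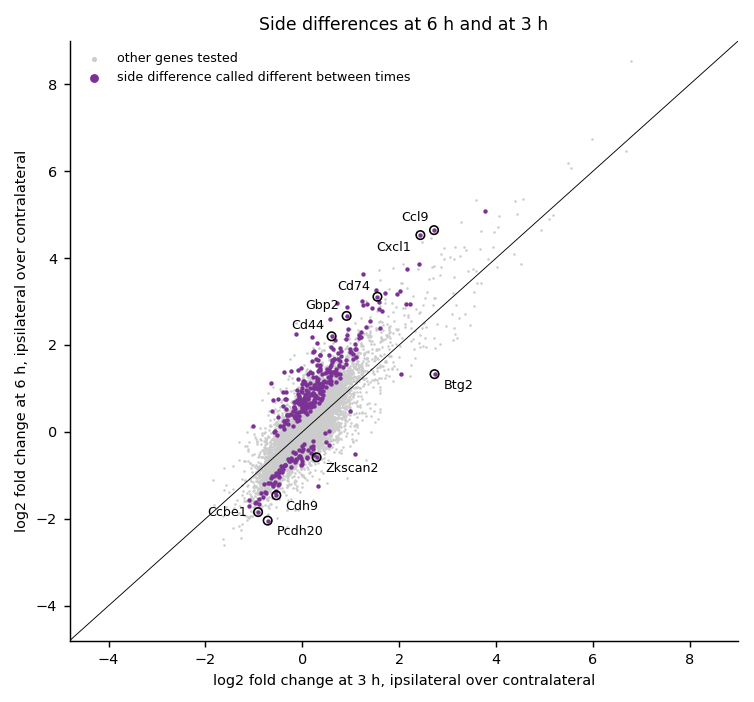
Log2 fold change (ipsilateral over contralateral) at 6 h (y axis) against that at 3 h (x axis) for genes tested at both times, with the line of equal change. Purple points are genes whose side difference differed between the times, and circles mark the 10 named genes, from Cxcl1 (2.09 higher at 6 h) to Btg2 (1.40 lower at 6 h).

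Among the genes with a larger difference at 6 h, Cxcl1, a chemokine that attracts neutrophils, had 89.9 to 168 ipsilaterally and 1.22 to 8.93 contralaterally at 6 h, against 43.4 to 126 ipsilaterally and 7.23 to 18.5 contralaterally at 3 h. The log2 side difference at 6 h minus that at 3 h was 2.09 ± 0.47 (limma adjusted p = 0.0312). For Ccl9 the levels were 704 to 1294 ipsilaterally and 24.8 to 48.8 contralaterally at 6 h, against 132 to 558 ipsilaterally and 21.1 to 51.5 contralaterally at 3 h (1.92 ± 0.41). Cd44, a receptor for hyaluronan found on reactive astrocytes and leukocytes, had 698 to 1775 ipsilaterally and 172 to 467 contralaterally at 6 h, against 239.8 to 576 ipsilaterally and 193 to 331 contralaterally at 3 h (1.595 ± 0.28). Cd74 had 118 to 206 ipsilaterally and 7.94 to 30.8 contralaterally at 6 h, against 47.1 to 78.6 ipsilaterally and 16.4 to 31.8 contralaterally at 3 h (1.56 ± 0.23). For Gbp2, an interferon-induced GTPase, it was 1.76 ± 0.41. Cd44 and Cd74 stayed called in all 17 alternatives, and the other 8 named genes lost the call in 2 to 8 of them.

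Btg2, an antiproliferative gene of the early response, had 459 to 1142 ipsilaterally and 217 to 359.8 contralaterally at 6 h, against 1459 to 2769.8 ipsilaterally and 259 to 514 contralaterally at 3 h, and its log2 side difference at 6 h minus that at 3 h was -1.40 ± 0.31. Pcdh20 had 132 to 552 ipsilaterally and 943 to 1515 contralaterally at 6 h, against 466 to 811 ipsilaterally and 922 to 1444 contralaterally at 3 h (-1.33 ± 0.30). The adhesion gene Cdh9 (-0.92 ± 0.20), Ccbe1, a matrix gene of lymphatic growth (-0.93 ± 0.22), and the zinc finger gene Zkscan2 (-0.88 ± 0.18) also had a more negative side difference at 6 h.

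By list, 7 of 24 reactive astrocyte genes had a side difference called higher at 6 h and 0 called lower, set against 1.43% and 0.463% of all genes. They were Gbp2, Timp1, Cd44, Emp1 (1.46 ± 0.33), Osmr (1.24 ± 0.29), Ptx3 and Nes (0.82 ± 0.14), named after their values were seen. Of these, Gbp2, Timp1, Cd44 and Osmr are also counted in other lists. The same call was made for 4 of 15 chemokines (Cxcl1, Ccl9, Ccl12 and Ccl6), 4 of 29 cytokines and growth factors, 4 of 24 cytokine receptors (with Il4ra at 1.08 ± 0.16) and 5 of 33 stress response genes (with Creld2 at 0.76 ± 0.12). Other lists with such calls included 3 of 23 interferon genes, 3 of 23 protease and matrix genes and 2 of 10 thalamus markers (Tcf7l2, Rora). Immediate early factors had 3 higher and 1 lower (Klf6) of 28. Targets of p53 and cell death genes had 4 higher and 1 lower (Btg2) of 35. Ccnd1, of the cell cycle list, had a side difference of 1.43 at 6 h and 0.55 at 3 h. In the neuronal lists calls between the times were all toward a more negative side difference at 6 h, beside 0.463% of all genes. Called were 1 of 17 NMDA and AMPA genes (Gria3), 2 of 28 postsynaptic genes (Nlgn1, Lrrtm4) and 1 of 28 vesicle genes (Sv2b). In addition 2 of 20 GABA genes (Gabrb1, Gphn) and 1 of 35 potassium channels (Kcnd2) were called. The remaining ones were 3 of 21 sodium and calcium channels (Cacna1c, Cacna1e, Cacna2d1). No kainate or metabotropic receptor and no neuron, subfield or interneuron marker was called. List calls between the times were not recounted in the alternatives. Gabrb1, a GABA receptor subunit, had the side difference -1.66 at 6 h and -0.88 at 3 h.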

How the data were processed

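RNA of the hippocampus was sequenced from both sides of the brain, and 12 libraries of 6 h were analysed here, with the 12 libraries of 3 h used in the comparison of times. Per the submitters' processing notes the tools included Trim Galore, HISAT2, SAMtools, featureCounts and DESeq2 with mouse build GRCm39 (mm39). Versions are not given in the sources used here, nor is whether counting used strand, so antisense and overlapping genes cannot be told apart. The values the authors deposited are gene signal: read counts divided by size factors, here called normalized counts. All of them (100%) came out as whole reads within a tolerance of 1e-06 when divided by the value of 1 read. Their sum per 6 h library was 1.912e+07 to 2.112e+07 ipsilaterally and 2.2073e+07 to 2.4418e+07 contralaterally. Scaling to equal sums was not run, and how far small side differences depend on the scaling was not tested that way. Of 33084 lines 10770 (32.55%) had no gene name, took 8.41% to 12.5% of the reads and were left out of the tests.

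The tests took the 18115 genes (81.18% of named lines) that reached 10 normalized counts in 2 or more of the 12 libraries, as log2(value + 1) with limma 3.58.1 in R 4.3.3, with genotype as a block and Benjamini-Hochberg adjustment at 0.05. Fold changes on this scale understate the change of low genes. Interactions of side with genotype and with time were tested the same way. Alternatives were a pseudocount of 5, no filter, edgeR 4.0.16 and DESeq2 1.42.0 on the recovered reads, a replicate block, all 24 libraries, the choroid plexus level as a covariate, each library left out, and, chosen after seeing the data, each genotype left out. The fits were tested on simulated data. Named genes were the 16 highest and 16 lowest called log2 fold changes among genes with a mean of at least 50, without predicted genes and without overlap between sides, and up to 4 members of each list with the smallest adjusted p. Other genes, and all members named for going against their list, were chosen after their values were seen. The gene lists and comparisons were chosen with earlier results of these data known. Some lists share members, so counts of different lists are not independent. Nothing says that replicates came from separate litters, so p-values measure the spread between these libraries. The design text says that both sides were collected, so equal replicate numbers were taken as 1 animal. Deviations of same-numbered libraries correlated at 0.155 (labelled Neil1-KO), 0.035 (Neil2-KO) and -0.0033 (WT) at 6 h. Intervals of read ratios cover counting error only. A few members of the lists are counted in them but are not reported here by name.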

Additional observations from a re-analysis of the deposited data

Results flagged for a closer look

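Among 64 sets of 6 values (32 named genes on each side) 5 held 1 value whose gap to the nearest other, over the range, passed the 95% critical value of Dixon for 6 values, where chance gives about 1 set in 20. Atf3 stood at 114.4 normalized counts in Neil2-KO contralateral replicate 1, with the nearest contralateral value at 38.5. Ccl7 stood at 43.61 in WT ipsilateral replicate 2, with the nearest ipsilateral value at 115.7. Grin2b stood at 989.7 and Grin2a at 252.7 in labelled Neil1-KO ipsilateral replicate 2, with the nearest ipsilateral values at 2728 and 674.1. Wipf3 stood at 3819 in Neil2-KO contralateral replicate 1, with the nearest contralateral value at 4554.

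The side difference differed between the times (6 h minus 3 h, log2) by 2.092 for Cxcl1, 1.925 for Ccl9, 1.755 for Gbp2, 1.595 for Cd44 and 1.56 for Cd74 in limma's interaction test. It differed by -1.4 for Btg2, -1.326 for Pcdh20, -0.9309 for Ccbe1, -0.9219 for Cdh9 and -0.878 for Zkscan2.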

How the results depend on the processing

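The 7454 genes called between the sides became 6342 to 7693 when single libraries were left out, 7897 with DESeq2, 7469 with edgeR, 6746 with the replicate block (animal), and 5674, 5400 and 6335 without labelled Neil1-KO, Neil2-KO and WT. The interaction with genotype, 0 genes in limma, called 82 with DESeq2, 0 with edgeR, 4 with the replicate block and 0 to 2107 when single libraries were left out. The interaction with time, 348 genes, called 798 with DESeq2 (488 higher, 310 lower), 370 with the replicate block and 108 to 1405 when single libraries were left out (90 to 534 higher, 12 to 871 lower). Of the counts over all genes the block moved that for genotype by over 1.5 times and not those for side and time; among lists it moved the number lower to 1 (NF-kB, cholesterol synthesis, meninges), 0 (proteases and matrix) and 2 (oligodendrocyte). The Neil2 side difference ranged between -0.1887 and 0.313 without single libraries and was below 0 in 5 of these fits. The cause of these shifts was not tested. Among values of single genes and counts of lists 2559 were labelled the same. For a gene this means that direction and call were kept, and for a list that the count stayed within 1.5 times. Beyond that 111 list counts moved, 47 gene values lost the call and 5 changed sign. Genes at a few reads, such as contralateral Ccl4, have wide counting intervals.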
